A study of Homo sapiens with 24 samples.

Results

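The golgins are long coiled-coil proteins of the Golgi surface, and 9 of their genes are described here out of 28307 gene rows in the count table: GOLGA4, GOLGB1, GOLGA1, GOLGA2, GOLGA3, GOLGA5, GCC1, GCC2 and TRIP11. They were chosen by gene symbol, and all 9 passed the filter on low counts in each fit. The measurement is RNA immunoprecipitation sequencing, which reads the RNA recovered with a tagged protein. The cells were HCT116, a human colorectal carcinoma line, in which CRISPR/Cas9 editing had fused GFP to a chaperone subunit at its own gene. The labels do not say whether each line is a single clone.

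In the RPAP3 line the tagged protein was RPAP3, the scaffold of the R2TP co-chaperone, and the cells were treated with puromycin (100 µg/mL for 30 min) or left untreated. In the RUVBL1 line it was RUVBL1, an AAA+ ATPase that forms rings with RUVBL2. Those cells were given CB-6644 (0.5 µM for 16 h), an inhibitor of the RUVBL1/2 ATPase, together with puromycin, or CB-6644 alone, or puromycin alone, or were left untreated. Lysates of every treatment went over GFP-Trap beads, called GFP beads here, and over agarose beads without the GFP binder, called uncoupled beads. This gives 12 groups of 2 libraries, 4 groups in the RPAP3 line and 8 in the RUVBL1 line. All lines carried a GFP knock-in, and the uncoupled beads of the same line and treatment served as the reference for each recovery.

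Golgins stand on Golgi membranes and capture passing vesicles. Most are anchored at one end, either by a membrane-spanning segment or by a domain such as GRIP that binds a small GTPase of the ARL family. R2TP works with HSP90 to assemble large complexes, among them RNA polymerase II and chromatin remodellers, and puromycin ends translation early by releasing the unfinished chain from the ribosome. An mRNA can come down with a chaperone through the chain being made on it, and the puromycin groups address that question.

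Total counts ran from 30844089 to 50394245 per library in the RPAP3 line and from 9019665 to 33051512 in the RUVBL1 line. Levels below are in CPM, each library's counts scaled to a common depth with TMM within each line, so levels are comparable within a line. In the RUVBL1 line 3 libraries stood apart in a principal component analysis: CB-6644 replicate 2 on GFP beads, both-drug replicate 1 on GFP beads, and untreated replicate 2 on uncoupled beads. For some results that rest on them, values without these libraries are also given, and for others they are not. Without them, 3 groups hold 1 library each (GFP beads after both drugs, GFP beads after CB-6644 and untreated uncoupled beads). Such a lone library is assumed to vary like the other groups, and the same holds for each group of 2 from which 1 library was left out. The epithelial markers KRT8, KRT18 and KRT19 had at least 8881 counts in every library and EPCAM at least 952, while VIL1 and CEACAM5 had at most 29 and 17. Of 12 markers of blood, stroma, endothelium and liver, COL1A1 had 101 to 653 counts and VWF 1 to 99, and the remaining 10 had at most 27. The summed level of these 12 markers was scaled to the library total without TMM. It was 46.9 CPM in that CB-6644 library and 27.2 CPM in that both-drug library, against at most 17.1 CPM in the other 22 libraries.

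GOLGA4 mRNA was the golgin recovered with both chaperones in untreated cells. GOLGA4 (golgin-245 or p230; NCBI gene 2803, chr3:37243271-37366879 in hg38) carries a GRIP domain and sits on the trans-Golgi. With RPAP3 it had 7751 and 10228 CPM on GFP beads and 88.6 and 94.1 CPM on the uncoupled ones. With RUVBL1 it had 3454 and 2692 CPM on GFP beads and 194.4 and 126 CPM on the uncoupled ones. In each line the GFP libraries lay far above the uncoupled ones, with no overlap. Both GFP libraries lay above both uncoupled ones for 17.4% of all genes tested with RPAP3 and 18.6% with RUVBL1. Enrichment means log2 of the GFP-bead level over the uncoupled-bead level. For GOLGA4 it was 6.62 ± 0.23 with RPAP3 (98.4-fold; adjusted p = 3.30e-14) and 4.26 ± 0.38 with RUVBL1 (19.2-fold; adjusted p = 3.39e-07) in edgeR's quasi-likelihood test, where ± is a standard error with the variance pooled over the libraries of the fit. Ranked by enrichment, GOLGA4 was number 4 of the 15202 genes tested with RPAP3 and number 77 of the 15976 tested with RUVBL1. GOLGA4 reads made up 0.748% and 1.03% of all counts in the untreated RPAP3 GFP libraries, against 0.00935% and 0.0099% on uncoupled beads.

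**Figure D1:**
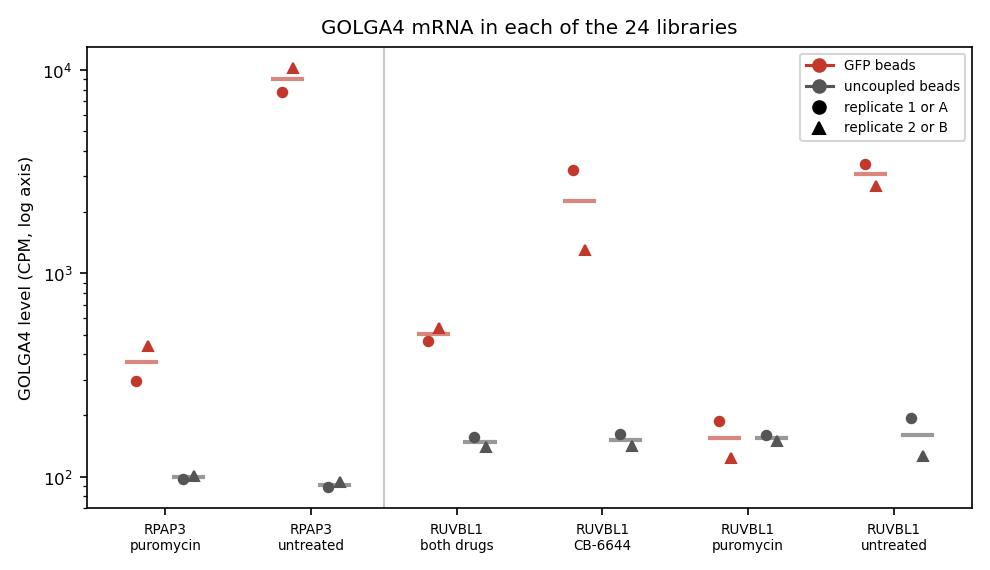
GOLGA4 level in CPM on a log axis for each library, as points, with the group mean as a bar, on GFP beads (red) and uncoupled beads (grey) of the RPAP3 and RUVBL1 lines by treatment. In untreated cells the GFP libraries are at 7751 and 10228 CPM with RPAP3 and at 3454 and 2692 CPM with RUVBL1, and every uncoupled library lies between 88.6 and 194.4 CPM.

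Puromycin lowered the recovery of GOLGA4 mRNA with both chaperones. With RPAP3, GOLGA4 fell to 294.6 and 438.5 CPM on GFP beads after puromycin, against 7751 and 10228 CPM in untreated cells. The uncoupled beads of the puromycin group had 97.8 and 100.9 CPM, so the GFP libraries still lay above them, as for 18.5% of all genes. The remaining enrichment was 1.88 ± 0.18 (edgeR adjusted p = 8.50e-06). The change of enrichment with puromycin, tested as an interaction, was -4.74 ± 0.26 (edgeR adjusted p = 1.54e-10).

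With RUVBL1, GOLGA4 had 187.3 and 123.2 CPM on GFP beads after puromycin, against 159.6 and 149.9 CPM on uncoupled beads of that treatment. The GFP libraries lay on either side of the uncoupled ones, and the enrichment was 0.01 ± 0.34 (edgeR adjusted p = 1). Against the enrichment of untreated cells this was a change of -4.26 ± 0.50 (edgeR adjusted p = 5.27e-05). Leaving out each library in turn kept the call of the fall with both chaperones, at -5.06 to -4.48 with RPAP3 and at -4.62 to -3.98 with RUVBL1. Without the 3 libraries that stood apart the RUVBL1 value was -3.99 (edgeR adjusted p = 1.63e-10).

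The RNA that stuck to uncoupled beads gives the background level of GOLGA4. With puromycin over untreated cells it differed by 0.12 ± 0.18 in the RPAP3 line (edgeR adjusted p = 0.627) and by -0.05 ± 0.34 in the RUVBL1 line (edgeR adjusted p = 0.976), neither a called change. In the RPAP3 line 43% of all genes tested were called changed on uncoupled beads after puromycin, while in the RUVBL1 line 0 of 15976 genes were called by edgeR in that comparison, with 1464 at an unadjusted p under 0.05. The epithelial marker sum of the RPAP3 line, scaled to the library total without TMM, also differed with puromycin on both kinds of beads. It was 4096 to 5126 CPM in the 4 puromycin libraries against 1475 to 1919 CPM in the 4 untreated ones. Its part in the GOLGA4 result was not tested, and GOLGA4 itself stayed within 88.6 to 100.9 CPM on all 4 uncoupled libraries of that line.

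After CB-6644 alone GOLGA4 mRNA was still recovered with RUVBL1. It had 3227 and 1306 CPM on GFP beads and 162.3 and 140.8 CPM on the uncoupled ones. The lower of the GFP values comes from the replicate that stood apart, and both lay far above the uncoupled libraries. Of all genes, 23.1% had both GFP libraries above both uncoupled ones there. The enrichment was 3.90 ± 0.38 (edgeR adjusted p = 4.71e-07) and 4.41 without the 3 libraries that stood apart (adjusted p = 2.31e-16). When only the 4 libraries compared entered the fit the value was 3.93 with an edgeR adjusted p of 0.077, above the threshold of 0.05. The change of enrichment with CB-6644 was -0.36 ± 0.48 (edgeR adjusted p = 0.784). This value turned on single libraries: it was 0.14 without GFP replicate 2 of CB-6644 (adjusted p = 0.973) and -1.17 without GFP replicate 1 (adjusted p = 0.049).

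With both drugs GOLGA4 mRNA was enriched with RUVBL1. It had 466.8 and 539.6 CPM on GFP beads and 155.9 and 140.6 CPM on the uncoupled ones, and the groups did not overlap. Both GFP libraries lay above both uncoupled ones for 22.7% of all genes there. The enrichment was 1.76 ± 0.35 (edgeR adjusted p = 0.0109). The call was lost without GFP replicate 2 of that treatment (1.64, adjusted p = 0.0788), without uncoupled replicate 1 (1.83, adjusted p = 0.231) and without uncoupled replicate 2 (1.68, adjusted p = 0.338), and it was kept without the 3 libraries that stood apart (1.85, adjusted p = 1.85e-07), where the GFP value is 1 library and its spread is taken from other groups. On GFP beads the level after both drugs lay below that after CB-6644 alone, at 3227 and 1306 CPM, and above that after puromycin alone, at 187.3 and 123.2 CPM.

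The changes behind that order missed the threshold with all libraries in. The puromycin change in the presence of CB-6644 was -2.14 ± 0.48 (edgeR adjusted p = 0.241). With each library left out in turn it ran from -2.66, without GFP replicate 2 of CB-6644, to -1.35. The CB-6644 change in the presence of puromycin was 1.76 ± 0.48 (edgeR adjusted p = 0.182). Without the 3 libraries that stood apart both were called, at -2.56 (edgeR adjusted p = 3.21e-06) and 1.85 (edgeR adjusted p = 1.13e-04). In that fit the GFP beads after both drugs and after CB-6644 have 1 library each, so these p-values rest on the spread of other groups. The puromycin change with CB-6644 minus that without it was 2.11 ± 0.67 (edgeR adjusted p = 0.534), a comparison added after the data had been seen. That difference was not called in 22 of 24 alternatives. The 2 that called it were those without GFP replicate 1 of CB-6644 (2.92) and without the 3 libraries (1.43). The first keeps only GFP replicate 2 of CB-6644, a library that stood apart. With each library left out in turn the difference ran from 1.61 to 2.92.

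RPAP3 enriched GOLGA4 mRNA more than RUVBL1 did, by the test of the difference itself. In untreated cells the RPAP3 enrichment minus the RUVBL1 enrichment was 2.31 ± 0.44 (edgeR adjusted p = 0.00981), and after puromycin it was 1.84 ± 0.44 (edgeR adjusted p = 0.0134). In untreated cells the call was lost without RUVBL1 GFP replicate 2 (2.16, adjusted p = 0.0916), RPAP3 uncoupled replicate A (2.30, adjusted p = 0.102) or RPAP3 uncoupled replicate B (2.36, adjusted p = 0.0536). After puromycin it was lost without RUVBL1 GFP replicate 2 (1.55, adjusted p = 0.148), RUVBL1 uncoupled replicate 1 (1.79, adjusted p = 0.075), RPAP3 GFP replicate B (1.57, adjusted p = 0.092) or RPAP3 uncoupled replicate A (1.82, adjusted p = 0.0674). The puromycin change itself differed between the lines by -0.47 ± 0.61 (edgeR adjusted p = 0.94). Of the 9 golgins 1 was called higher with RPAP3 in untreated cells, against 0.0599% of all genes. The tagged protein and the cell line cannot be told apart in this comparison.

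Within the RPAP3 line the order of the GOLGA4 levels was untreated GFP beads (8990 ± 1752 CPM, SD, n = 2), puromycin GFP beads (366.6 ± 102 CPM), puromycin uncoupled beads (99.3 ± 2.16 CPM) and untreated uncoupled beads (91.3 ± 3.93 CPM). Within the RUVBL1 line it was untreated GFP beads (3073 ± 539 CPM), CB-6644 GFP beads (2267 ± 1358 CPM) and GFP beads after both drugs (503.2 ± 51.5 CPM). The remaining RUVBL1 groups were at 148.3 to 160.2 CPM. Untreated and CB-6644 GFP beads of the RUVBL1 line overlapped, and so did the groups at 148.3 to 160.2 CPM among themselves. The uncoupled groups of the RPAP3 line did not overlap, but their difference was not called.

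The counts of all 9 golgins together were mostly GOLGA4 counts on the GFP beads of untreated cells. GOLGA4 held 96.1% and 96.4% of golgin counts on RPAP3 GFP beads, against 24.6% and 25.7% on uncoupled beads. With RUVBL1 it held 92% and 89.3% on GFP beads and 30.9% and 29% on the uncoupled ones. After puromycin the share on GFP beads was 43.1% and 47.6% with RPAP3 and 28.7% and 23.2% with RUVBL1. These shares are not scaled for transcript length, so they compare libraries and not genes.

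Across the 9 golgins 1 to 3 mRNAs were called enriched in each condition. With RPAP3 in untreated cells 2 of 9 were called higher on GFP beads, GOLGA4 and GOLGA3, where 1.53% of all genes tested were called higher. With RPAP3 after puromycin 3 of 9 were called higher, GOLGA4, GOLGB1 and TRIP11, against 0.46% of all genes. With RUVBL1 after both drugs the same genes, GOLGA4, GOLGB1 and TRIP11, were called, against 0.557% of all genes. With RUVBL1 after CB-6644 alone 1 of 9 was called, GOLGA4, against 1.87% of all genes. After puromycin alone 1 of 9 was called, GOLGA3, against 9.95% of all genes, and in untreated cells 1 of 9, GOLGA4, against 0.914%.

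In these 6 comparisons edgeR called no golgin depleted on GFP beads. Of all genes, 0% were called lower with RPAP3 after puromycin and 0.00658% in untreated cells. With RUVBL1 the share was 0% after both drugs, 0.557% after CB-6644, 3.82% after puromycin and 0.0188% in untreated cells. DESeq2 called 1 golgin lower with RUVBL1 in untreated cells, GCC2 at -0.95 (adjusted p = 0.027), and none in the other 5. Its share of all genes called lower is not given here. At an unadjusted p under 0.05, GCC2 and GOLGB1 lay lower there with edgeR, and no golgin did in the other 5. With RUVBL1 in untreated cells 660 of 15976 genes lay lower by that rule. The median golgin enrichment was 0.21 with RPAP3 after puromycin and 0.39 in untreated cells, where the medians of all genes were -9.05e-04 and -0.01. With RUVBL1 it was 0.60 after both drugs, 0.32 after CB-6644, 0.01 after puromycin and -0.14 in untreated cells, where the medians of all genes were 0, 0.02, 0 and -0.04.

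**Figure D2:**
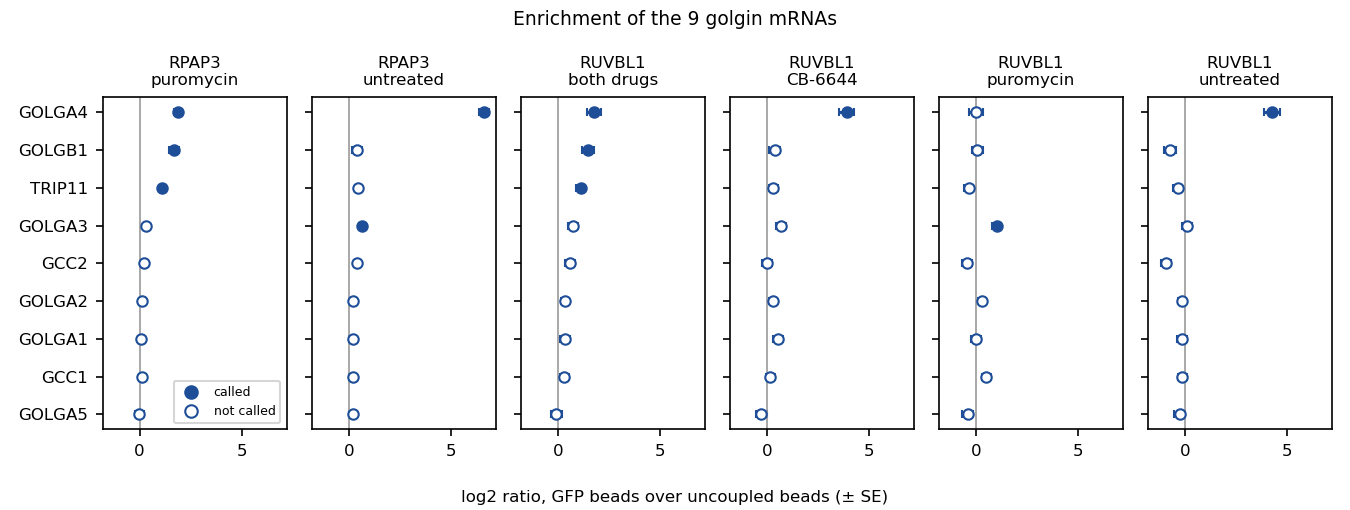
Enrichment of each golgin mRNA, as the log2 ratio of GFP beads over uncoupled beads with its standard error, in 1 panel per line and treatment. Filled points were called at an adjusted p under 0.05: GOLGA4 reaches 6.62 with RPAP3 in untreated cells, and GOLGB1 and TRIP11 are filled only in the panels of RPAP3 after puromycin and RUVBL1 after both drugs.

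Of the changes with a drug, GOLGA4 was the 1 golgin of 9 called, and lower, with puromycin in each line, where 0.243% of genes in the RPAP3 line and 0.0751% in the RUVBL1 line were called lower. For the puromycin change under CB-6644, the CB-6644 change, and the CB-6644 change under puromycin, edgeR called 0 of 9 golgins in either direction. At an unadjusted p under 0.05 there were 3, 3 and 4 golgins in these comparisons, and DESeq2 called 1, 0 and 3. Of all genes edgeR called 0.0501%, 0.188% and 0.106%. At an unadjusted p under 0.05 there were 329, 1878 and 1359 of 15976 genes. The share of all genes called by DESeq2 is not given here.

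GOLGB1 mRNA was recovered with RPAP3 when cells had been given puromycin, the treatment that lowered GOLGA4. GOLGB1 (giantin; NCBI gene 2804, chr3:121663201-121749966 in hg38) is a tail-anchored golgin of the Golgi rims. After puromycin it had 77.1 and 131.5 CPM on RPAP3 GFP beads, against 32.6 and 33 CPM on uncoupled beads, with no overlap. In untreated cells it had 37.4 and 54.5 CPM on GFP beads and 33 and 37.2 CPM on the uncoupled ones. The GFP values there lay just above the uncoupled ones. Of all genes, 18.5% had both GFP libraries above both uncoupled ones after puromycin and 17.4% in untreated cells. The enrichment after puromycin was 1.67 ± 0.25 (edgeR adjusted p = 0.0304), and in untreated cells it was 0.39 ± 0.25 (edgeR adjusted p = 0.843).

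The call after puromycin was lost without RPAP3 uncoupled replicate A (1.66, edgeR adjusted p = 0.437), without uncoupled replicate B (1.67, adjusted p = 0.49) and when only the 4 libraries compared were fitted (1.66, adjusted p = 0.482). The puromycin change of GOLGB1 enrichment was 1.28 ± 0.35 and not called (edgeR adjusted p = 0.906). It was called with no filter on low counts (1.28, adjusted p = 1.75e-07), with DESeq2 (1.29, adjusted p = 0.0055), with the replicate number as a block (1.25, adjusted p = 0.00217) and without RPAP3 GFP replicate A of puromycin (1.62, adjusted p = 5.91e-04).

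With RUVBL1, GOLGB1 was enriched after both drugs. It had 199.6 and 175 CPM on GFP beads and 68.9 and 65.6 CPM on the uncoupled ones, an enrichment of 1.48 ± 0.28 (edgeR adjusted p = 0.00704). After CB-6644 alone it had 83 and 79.7 CPM on GFP beads and 73.8 and 51.2 CPM on the uncoupled ones. The GFP libraries of both drugs were thus above every other RUVBL1-line library. After puromycin alone GOLGB1 had 82.1 and 49.9 CPM on GFP beads and 67.8 and 58.4 CPM on the uncoupled ones, and in untreated cells 34.1 and 39.5 CPM, against 80.5 and 41.4 CPM. The enrichments were 0.38 ± 0.27 (edgeR adjusted p = 0.428) after CB-6644, 0.07 ± 0.27 (edgeR adjusted p = 0.921) after puromycin and -0.74 ± 0.28 (edgeR adjusted p = 0.289) in untreated cells.

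Without the 3 libraries that stood apart GOLGB1 kept its call after both drugs (1.37). The call was lost without GFP replicate 1 of that treatment alone (1.37, edgeR adjusted p = 0.0748), without uncoupled replicate 1 (1.50, adjusted p = 0.201) and without uncoupled replicate 2 (1.43, adjusted p = 0.215). Without the 3 libraries GOLGB1 was also called lower on GFP beads in untreated cells (-1.12, edgeR adjusted p = 0.0053). Its CB-6644 change in the presence of puromycin was 1.41 ± 0.39 (edgeR adjusted p = 0.187), and 1.30 (adjusted p = 0.013) without the 3 libraries. After puromycin the RPAP3 enrichment of GOLGB1 exceeded the RUVBL1 one by 1.56 ± 0.40 (edgeR adjusted p = 0.0232), with 3 of 9 golgins called there against 0.473% of all genes. Without RUVBL1 GFP replicate 2 the difference was 1.23 (adjusted p = 0.18), and without RUVBL1 uncoupled replicate 1 it was 1.45 (adjusted p = 0.138). It was also not called without RPAP3 GFP replicate B (1.17, adjusted p = 0.14), RPAP3 uncoupled replicate A (1.55, adjusted p = 0.0979) or RPAP3 uncoupled replicate B (1.58, adjusted p = 0.0812).

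TRIP11 was called in the same conditions as GOLGB1. TRIP11 (GMAP-210; NCBI gene 9321, chr14:91965991-92040059 in hg38) is a cis-Golgi golgin with a GRIP-related domain that binds ARF1, and its N-terminal end senses curved membranes. With RPAP3 after puromycin it had 59.2 and 76.8 CPM on GFP beads and 31.1 and 33.7 CPM on the uncoupled ones. In untreated cells it had 48.8 and 51.7 CPM on GFP beads and 34.6 and 39.7 CPM on the uncoupled ones. In both treatments the GFP libraries lay above the uncoupled ones, as for 18.5% of all genes after puromycin and 17.4% in untreated cells. The enrichment was 1.07 ± 0.14 (edgeR adjusted p = 3.11e-04) after puromycin and 0.43 ± 0.14 (edgeR adjusted p = 0.202) in untreated cells, and the change between them was 0.64 ± 0.20 (edgeR adjusted p = 0.731). The enrichment after puromycin was called in each of its 12 alternatives, with values from 0.87 to 1.25.

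With RUVBL1, TRIP11 had 85.3 and 83.7 CPM on GFP beads after both drugs, against 41.7 and 36 CPM on uncoupled beads. After puromycin alone it had 34.6 and 24.7 CPM, against 40.9 and 34.9 CPM. After both drugs the GFP libraries lay above the uncoupled ones, as for 22.7% of all genes. After puromycin alone both lay below them, as for 30.7% of all genes. The enrichment after both drugs was 1.12 ± 0.23 (edgeR adjusted p = 0.0142), and 1.09 (adjusted p = 0.00213) without the 3 libraries that stood apart. It was not called without any single library of that comparison, at 1.09 (adjusted p = 0.117) without GFP replicate 1, 1.12 (adjusted p = 0.0811) without GFP replicate 2, 1.22 (adjusted p = 0.21) without uncoupled replicate 1 and 1.00 (adjusted p = 0.535) without uncoupled replicate 2. The other RUVBL1 enrichments were 0.32 ± 0.23 after CB-6644, -0.35 ± 0.22 after puromycin and -0.36 ± 0.23 in untreated cells, none of them called.

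The CB-6644 change of TRIP11 in the presence of puromycin was 1.47 ± 0.32 (edgeR adjusted p = 0.0725). It was called without the 3 libraries that stood apart (1.45, adjusted p = 0.00215) and in 6 other alternatives, among them DESeq2 (1.50, adjusted p = 0.00273). After puromycin the RPAP3 enrichment of TRIP11 exceeded the RUVBL1 one by 1.38 ± 0.28 (edgeR adjusted p = 0.0048). Without RUVBL1 GFP replicate 2 this was 1.14 (adjusted p = 0.084) and without RUVBL1 uncoupled replicate 1 it was 1.27 (adjusted p = 0.0518).

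GOLGA3 had another pattern, with a smaller enrichment. GOLGA3 (golgin-160; NCBI gene 2802, chr12:132768914-132829081 in hg38) is a peripheral golgin without a membrane-spanning segment. With RPAP3 in untreated cells it had 61.7 and 61.1 CPM on GFP beads and 42.1 and 37.2 CPM on the uncoupled ones, and the enrichment was 0.63 ± 0.13 (edgeR adjusted p = 0.0102). That call was lost without uncoupled replicate B (0.54, adjusted p = 0.189), with total-count scaling (0.54, adjusted p = 0.079), with the 4 libraries alone (0.64, adjusted p = 0.0584) and with all 24 libraries in 1 fit (0.60, adjusted p = 0.717). With RPAP3 after puromycin GOLGA3 had 37.2 and 43.9 CPM on GFP beads and 31.1 and 33.5 CPM on the uncoupled ones. The GFP libraries lay just above, as for 18.5% of all genes, and the enrichment was 0.33 ± 0.13 (edgeR adjusted p = 0.968).

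With RUVBL1 after puromycin GOLGA3 had 140.2 and 129.7 CPM on GFP beads and 69.5 and 64.5 CPM on the uncoupled ones. The groups lay well apart, with an enrichment of 1.01 ± 0.23 (edgeR adjusted p = 0.00601) in a comparison where 13.8% of all genes were called in either direction. Both GFP libraries lay above both uncoupled ones for 31.8% of all genes there. The call was lost without GFP replicate 2 (1.06, adjusted p = 0.0512), uncoupled replicate 1 (1.07, adjusted p = 0.0783) or uncoupled replicate 2 (0.96, adjusted p = 0.07). In untreated cells it had 88.5 and 106.6 CPM on RUVBL1 GFP beads, against 113.8 and 68.1 CPM on uncoupled beads, which overlapped. The RUVBL1 enrichments of GOLGA3 were 0.74 ± 0.23 after both drugs, 0.70 ± 0.23 after CB-6644 and 0.10 ± 0.23 in untreated cells, none called. The value after CB-6644 was called in 6 of 13 alternatives, among them DESeq2 (0.74, adjusted p = 0.0262) and the fit without the 3 libraries that stood apart (0.63, edgeR adjusted p = 0.0466). The puromycin change was 0.91 ± 0.33 (edgeR adjusted p = 0.343), and 1.21 (adjusted p = 9.62e-04) without the 3 libraries that stood apart.

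**Figure D3:**
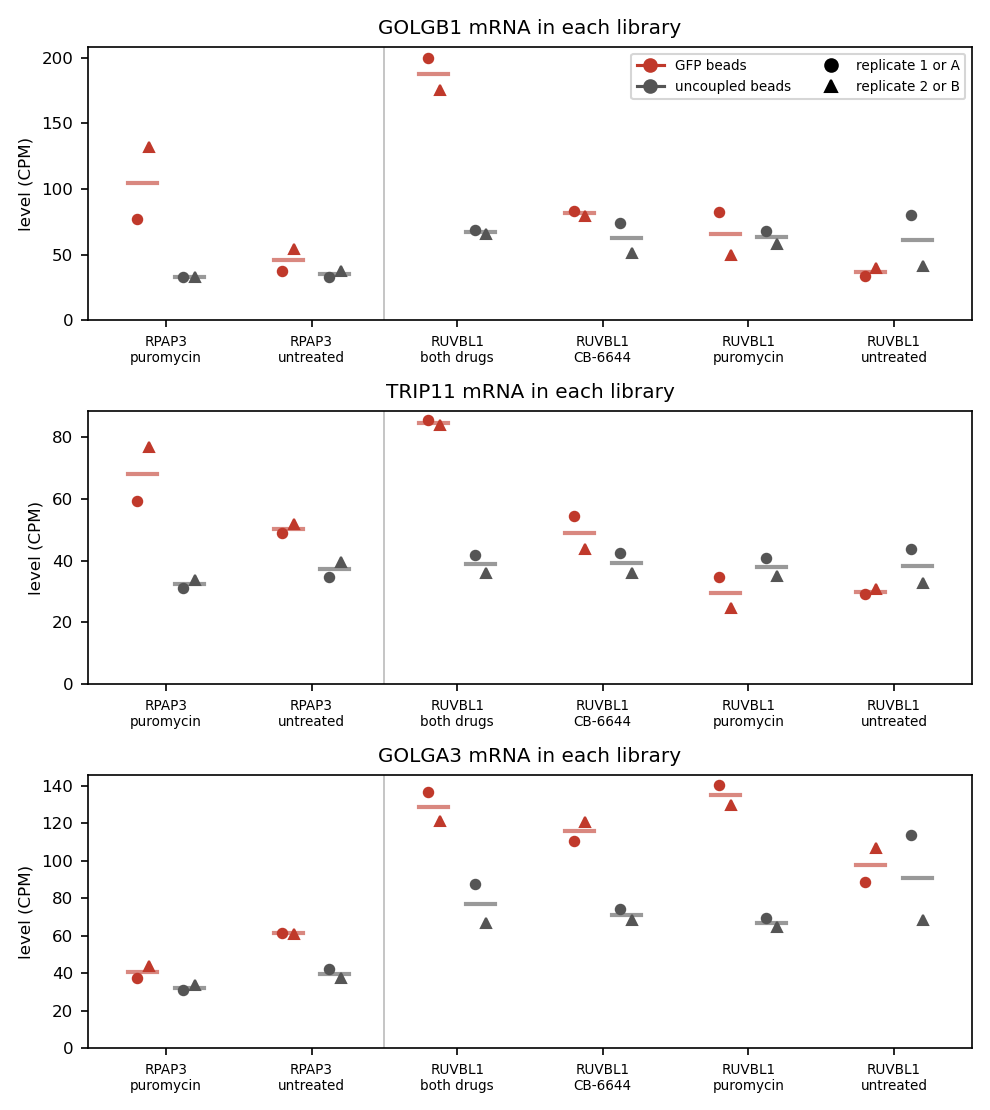
Levels of GOLGB1, TRIP11 and GOLGA3 mRNA in CPM for each library, as points, with the group mean as a bar, on GFP beads (red) and uncoupled beads (grey). GOLGB1 peaks at 199.6 and 175 CPM and TRIP11 at 85.3 and 83.7 CPM on the RUVBL1 GFP beads after both drugs, while GOLGA3 has 140.2 and 129.7 CPM on RUVBL1 GFP beads after puromycin.

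The other 5 golgins were called enriched in no condition by the main edgeR fits. They are GCC2 (GCC185) and GCC1 (GCC88), which carry GRIP domains as GOLGA4 does, GOLGA1 (golgin-97), another GRIP-domain golgin of the trans-Golgi, GOLGA2 (GM130), a cis-Golgi golgin that binds p115 and GRASP65, and GOLGA5 (golgin-84), which has a membrane-spanning tail. Their 30 enrichments ran from -0.93 for GCC2 with RUVBL1 in untreated cells to 0.60 for GCC2 with RUVBL1 after both drugs. At an unadjusted p under 0.05, 4 of the 30 lay higher on GFP beads. These were GCC2 with RPAP3 in untreated cells (0.41) and with RUVBL1 after both drugs (0.60), GOLGA1 with RUVBL1 after CB-6644 (0.53) and GCC1 with RUVBL1 after puromycin (0.51). Over all genes, 930 of 15202 lay higher by that rule with RPAP3 in untreated cells. With RUVBL1 it was 953 of 15976 after both drugs, 1903 after CB-6644 and 2639 after puromycin. Some alternatives did call them higher: GOLGA1 with RUVBL1 after CB-6644 in 1 of 13 and GCC1 with RUVBL1 after puromycin in 1 of 12. GOLGA5 was called higher with RPAP3 in untreated cells in 1 of 12, and lower with RUVBL1 after CB-6644 in 1 of 13. The shares of all genes called in those alternatives are not given here.

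Among these 5, GCC2 moved most between conditions. With RUVBL1 in untreated cells GCC2 averaged 21.3 ± 6.06 CPM on GFP beads and 40.5 ± 7.53 CPM on uncoupled beads (SD, n = 2 each), an enrichment of -0.93 ± 0.26 (edgeR adjusted p = 0.0995). It was called lower in that comparison with no filter on low counts (-0.93, adjusted p = 0.0173), with all 24 libraries in 1 fit (-0.91, adjusted p = 0.0255) and with DESeq2 (-0.95, adjusted p = 0.027). Without the 3 libraries that stood apart it was called too (-1.10, edgeR adjusted p = 0.00451). With RPAP3 in untreated cells it averaged 47.8 ± 0.254 CPM on GFP beads and 35.9 ± 0.457 CPM on uncoupled beads, an enrichment of 0.41 ± 0.14 (edgeR adjusted p = 0.24). The RPAP3 enrichment minus the RUVBL1 one was 1.29 ± 0.32 in untreated cells (edgeR adjusted p = 0.0679). It was called in 5 of 16 alternatives, among them DESeq2 (1.35, adjusted p = 0.0106), with values from 1.05 to 1.64 over all 16.

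On uncoupled beads of the RPAP3 line puromycin raised 3 of the 9 golgins, among 23.5% of all genes called higher there. GCC2 averaged 53.2 ± 6.55 CPM after puromycin and 35.9 ± 0.457 CPM in untreated cells (SD, n = 2 each), a log2 change of 0.57 ± 0.14 (edgeR adjusted p = 0.00221). GOLGA1 changed by 0.46 ± 0.15 (edgeR adjusted p = 0.019) and GOLGA2 by 0.37 ± 0.13 (edgeR adjusted p = 0.0247). All genes had shifted with scaling in this comparison, with a median of -0.23 under upper-quartile scaling, and the calls of GOLGA1 (0.29, adjusted p = 0.142) and GOLGA2 (0.20, adjusted p = 0.194) were lost there. Leaving out single libraries ended these calls too, with GCC2 at 0.44 (adjusted p = 0.0561) without uncoupled replicate B of puromycin. On uncoupled beads of the RUVBL1 line edgeR called 0 of 9 golgins changed with puromycin, CB-6644 or both, DESeq2 called 0, and 0 had an unadjusted p under 0.05.

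The golgins were set beside 3 other gene lists, of which long coiled-coil proteins had the most members called with RPAP3. The lists were chosen with earlier results of these data known, so these counts are a description. A list of 38 long coiled-coil proteins outside the Golgi (AKAP9, one of them, also sits at the Golgi) had 14 of 38 called higher with RPAP3 after puromycin and 14 of 38 in untreated cells. With RUVBL1 after both drugs 8 of 38 were called higher. Of all genes tested, 0.46%, 1.53% and 0.557% were called higher in these comparisons. The medians were 0.59, 0.53 and 0.88, against -9.05e-04, -0.01 and 0 over all genes tested. After puromycin with RPAP3 the smallest p-values were those of MYH10, a non-muscle myosin (1.52 ± 0.15, edgeR adjusted p = 8.50e-06), DSP, desmoplakin of the desmosome (2.65 ± 0.21, adjusted p = 8.50e-06), RAD50, a DNA-repair ATPase (1.24 ± 0.13, adjusted p = 2.26e-05), and KTN1, kinectin (1.14 ± 0.15, adjusted p = 3.06e-04).

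With RPAP3 in untreated cells the leading members were NIN, a centrosomal protein (1.21 ± 0.13), KTN1 (1.03 ± 0.15), MYH10 (0.96 ± 0.15) and MACF1, a cytoskeletal linker (0.95 ± 0.15), all called. With RUVBL1 after both drugs they were AKAP9 (1.70 ± 0.25), DSP (2.04 ± 0.32), CENPE, a mitotic kinesin (1.53 ± 0.24), and RAD50 (1.51 ± 0.27), all called. With RUVBL1 in untreated cells edgeR called 0 of 38, DESeq2 called 0, and 7 had an unadjusted p under 0.05, with a list median of -0.23. Of all 15976 genes, 1767 had an unadjusted p under 0.05 there. After puromycin with RUVBL1 7 of 38 were called higher and 1 lower, where 9.95% of all genes were called higher and 3.82% lower. After CB-6644 3 of 38 were called higher, against 1.87% of all genes, with a list median of 0.61. By an unadjusted p under 0.05 it was 20 of 38 in either direction, against 3531 of 15976 genes. DESeq2 called 15 of 38 higher and 0 lower there, and its share of all genes is not given here. The puromycin change with RPAP3 was called for 1 of 38, DSP (1.61 ± 0.28, edgeR adjusted p = 0.0138), against 0.00658% of all genes called higher. As a yardstick, 9 of 14 R2TP client subunits were called higher with RPAP3 in untreated cells (median 2.58), against 1.53% of all genes. After puromycin edgeR called 0 of 14 (median 0.18), with 1 at an unadjusted p under 0.05, and 0.46% of all genes were called higher. With RUVBL1 9 of 14 client subunits were called higher in untreated cells (median 2.72), against 0.914% of all genes. After puromycin with RUVBL1 7 of 14 were still called higher (median 1.07), against 9.95% of all genes.

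Golgin partners and other Golgi tethers, such as the small GTPases that golgins bind and the subunits of the COG, GARP and TRAPP tethering complexes, were tested for 38 of 39 members. With RPAP3 edgeR called 0 of 38 after puromycin and 0 in untreated cells, where 0 and 3 had an unadjusted p under 0.05 and DESeq2 called 0 in each. With RUVBL1 in untreated cells 1 of 38 was called higher, against 0.914% of all genes. It was ARFRP1, a GTPase that acts before ARL1 in golgin recruitment (1.00 ± 0.22, edgeR adjusted p = 0.0209). After puromycin with RUVBL1 5 of 38 were called higher and 2 lower, near the shares of all genes called there (9.95% higher and 3.82% lower). The smallest p-values were those of the tethering subunits TRAPPC9 (1.07 ± 0.22), VPS53 (0.98 ± 0.22) and VPS52 (0.81 ± 0.22), called higher, and of GOLGA7, a palmitoyltransferase subunit (-1.02 ± 0.28), called lower.

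Of 32 Golgi membrane enzymes and residents edgeR called 0 with RPAP3 in either treatment, with 0 after puromycin and 2 in untreated cells at an unadjusted p under 0.05, and DESeq2 called 0. With RUVBL1 after puromycin 12 of 32 were called higher, led by the glycosyltransferases MGAT5 (1.44 ± 0.21), GALNT2 (1.50 ± 0.22), ST3GAL1 (1.23 ± 0.24) and ST6GAL1 (1.28 ± 0.26), all called, in the comparison where 9.95% of all genes were higher. DESeq2 also called 12 higher and called 2 lower, and its share of all genes is not given here. In untreated cells with RUVBL1 2 of 32 were called higher, GALNT2 (1.07 ± 0.22) and MGAT5 (0.91 ± 0.21), against 0.914% of all genes.

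**Figure D4:**
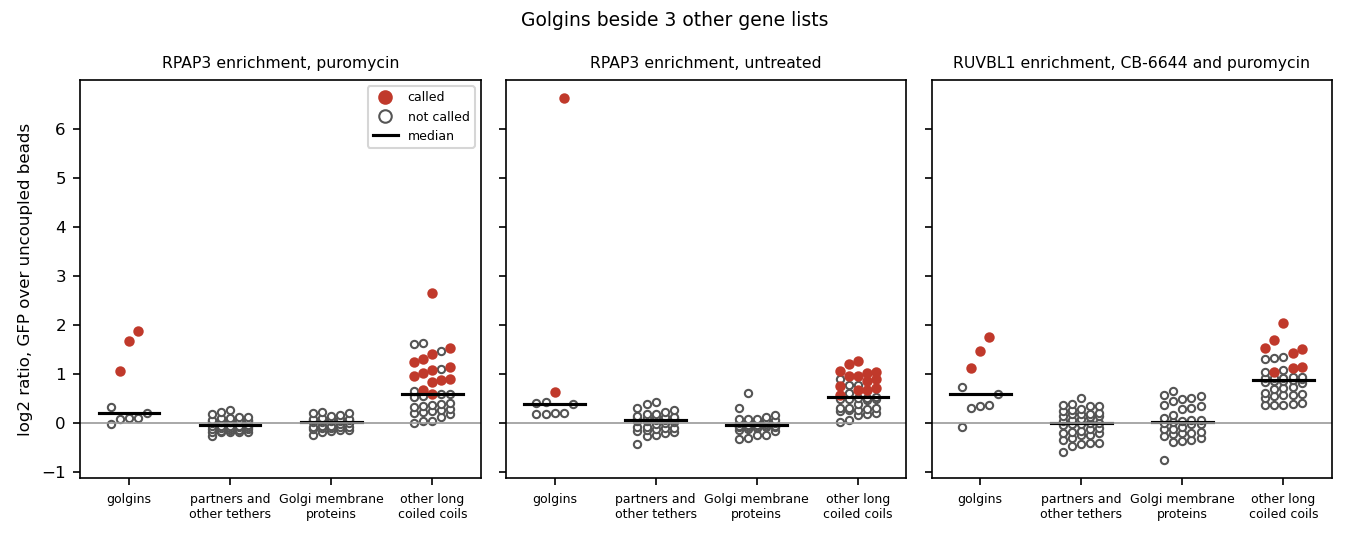
Log2 ratio of GFP over uncoupled beads for each tested gene of 4 lists (golgins, golgin partners and other Golgi tethers, Golgi membrane proteins, other long coiled-coil proteins), with called genes in red and the list median as a bar. In the panels of RPAP3 the red points are golgins or long coiled-coil proteins, with 14 long coiled-coil proteins in each, and GOLGA4 lies alone at 6.62 in untreated cells. The lists were chosen with earlier results of these data known.

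The mRNAs whose levels followed GOLGA4 most closely were not golgins. Among the 8 genes with the highest Pearson correlation with GOLGA4, over log2 CPM in 24 libraries centred on the mean of their line and among 10902 genes with at least 5 CPM, were SRCAP (0.94), EP400 (0.93), POLR2A (0.93), PRPF8 (0.91), MYO9A (0.91), PCF11 (0.91) and INO80 (0.90). These are a description: all points share the same libraries, and they differ in bead type and depth. SRCAP, EP400 and INO80 encode large subunits of chromatin-remodelling complexes that contain RUVBL1 and RUVBL2, POLR2A the largest subunit of RNA polymerase II, PRPF8 a core spliceosome protein, PCF11 an mRNA 3' end processing factor and MYO9A an unconventional myosin. In the 16 RUVBL1-line libraries alone SRCAP was again nearest (0.94), and in the 8 RPAP3-line libraries alone PLCB1, a phospholipase C, was (0.99). In those 8 libraries SRCAP was number 57 (0.94) and GOLGA3 number 110 (0.89). Over all 24 libraries the other golgins ranked from GOLGA3 at number 182 (0.58) and TRIP11 at number 1730 (0.30) to GOLGA5 at number 8059 (-0.26).

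The similar mRNAs and GOLGA4 had these values side by side. With RPAP3 in untreated cells the enrichment was 6.62 for GOLGA4, 5.34 for POLR2A, 5.13 for PRPF8, 5.10 for EP400 and 5.00 for SRCAP, all called. After puromycin with RPAP3 it was 1.88 for GOLGA4, while these 7 similar mRNAs ran from 0.04 for SRCAP to 0.40 for EP400 and were not called. With RUVBL1 in untreated cells PRPF8 (6.44), EP400 (6.07), SRCAP (4.86) and POLR2A (4.47) had larger values than GOLGA4 (4.26), and PCF11 had 3.76. After puromycin with RUVBL1 PRPF8 (1.65), EP400 (1.17), SRCAP (1.08) and INO80 (0.86) were still called, and GOLGA4 (0.01) was not. After CB-6644 PCF11 (3.89) and GOLGA4 (3.90) had nearly equal values, and with both drugs none of these 7 was called while GOLGA4 was (1.76). The differences between these genes were not tested.

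**Figure D5:**
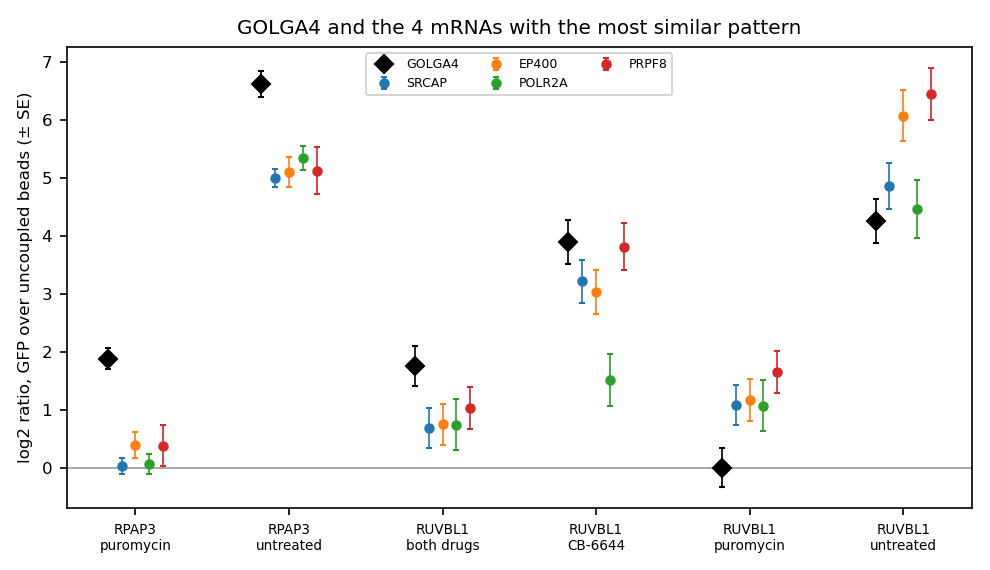
Enrichment, as the log2 ratio of GFP over uncoupled beads with its standard error, of GOLGA4 (black diamonds) and the 4 mRNAs with the most similar pattern, by line and treatment. After puromycin with RPAP3 GOLGA4 is at 1.88 and SRCAP, EP400, POLR2A and PRPF8 are at 0.04 to 0.40, and after both drugs with RUVBL1 GOLGA4 is at 1.76.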

How the data were processed

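The values used are whole-number read counts for each gene in 24 libraries, deposited by the authors without normalization. Per the submitters' processing notes, featureCounts 2.0.3 and TopHat2 2.1.1 were used on build hg38, beside bcl2fastq 2.20.0.422 and FastQC 0.11.9. Per the labels' protocols, the library kit was stranded. How strand was set and the handling of multi-mapped reads are not given in the sources used here, so GOLGA2 reads could be shared with its near-identical pseudogenes, and GCC2 reads with its antisense partner. Rows without a gene ID (517) carried symbols and stayed in the table.

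Counts were tested with edgeR 4.0.16 (filterByExpr, TMM, robust quasi-likelihood) in R 4.3.3, with Benjamini-Hochberg adjustment over all genes, and calls were made at an adjusted p under 0.05. One fit held the 16 RUVBL1 libraries (15976 genes), another the 8 RPAP3 libraries (15202) and, across lines, all 24 (16695). Alternatives were other scalings, no filter, DESeq2 1.42.0, other sets of libraries, a replicate block and leaving out libraries. Nothing in the labels ties the replicates to separate cultures, and the p-values thus reflect library-to-library spread alone, which may be technical. Replicate numbers showed no steady pairing over all group pairs. Deviations of same-numbered libraries correlated at -0.41 to 0.27 (median 0.04) over 28 group pairs of the RUVBL1 line. Over 6 group pairs of the RPAP3 line they correlated at -0.12 to 0.16 (median 0.02). GFP and uncoupled libraries of the same treatment were not checked by themselves, so pairing within a treatment was not tested. Positions are those of RefSeq GRCh38.p14.

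The members and lists were chosen with earlier results of these data known. Besides the 9 golgins, the named genes are, per comparison and list, up to 4 called members in order of p, and the 8 genes most like GOLGA4, of which 1 is not reported here and for which log2 CPM used a prior count of 2.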

Additional observations from a re-analysis of the deposited data

Results flagged for a closer look

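4 differences between the lines passed their own test, each the RPAP3 enrichment minus the RUVBL1 enrichment under the same treatment. In untreated cells this was 2.31 for GOLGA4. After puromycin it was 1.84 for GOLGA4, 1.56 for GOLGB1 and 1.38 for TRIP11, so all of them were higher with RPAP3. The tagged protein and the cell line cannot be told apart here.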

How the results depend on the processing

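No value for a golgin turned its direction among called values. Of 288 GOLGA4 values under the alternatives, 265 kept their side of the threshold, 11 lost a call and 12 gained one; of 2290 values of the other golgins these counts were 2196, 38 and 56. The cause was not tested. GOLGA4 enrichment after CB-6644 was 3.93 and not called when only the groups compared were fitted. The puromycin change of GOLGA4 under CB-6644 was called with no filter on low counts (-2.15), all 24 libraries in 1 fit (-2.16), DESeq2 (-2.15) and without the 3 libraries that stood apart (-2.56), a setting chosen after seeing the data. Its CB-6644 change under puromycin was called with no filter (1.78), only the groups compared (1.79), DESeq2 (1.78) and without the 3 libraries (1.85).

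Leaving out each library in turn gave GOLGA4 enrichments of 1.64 to 1.85 after both drugs, changes of -2.66 to -1.35 for puromycin under CB-6644, -1.17 to 0.14 for CB-6644, and 1.61 to 2.92 for the difference between the puromycin changes with and without CB-6644. The RPAP3 enrichment minus the RUVBL1 one was 1.93 to 2.61 in untreated cells and 1.55 to 2.19 after puromycin.

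The number of golgins called with RUVBL1 in untreated cells was 2 with no filter, all 24 libraries or DESeq2 and 3 without the 3 libraries. After puromycin it was 2 with only the groups compared and 0 to 1 with a library left out. After CB-6644 it was 2 with total-count scaling, no filter, all 24 libraries, DESeq2 or without the 3 libraries, 0 with only the groups compared, and 1 to 4 with a library left out. After both drugs it was 0 to 1 with a library left out. With RPAP3 in untreated cells it was 1 with total-count scaling, all 24 libraries or only the groups compared, and 1 to 3 with a library left out, and after puromycin 2 to 3. For the puromycin change it was 3 with RUVBL1 without the 3 libraries and 1 to 2 with a library left out, and with RPAP3 2 with no filter or DESeq2 and 1 to 2 with a library left out. Under CB-6644 the puromycin change was called for 1 golgin with no filter, all 24 libraries, DESeq2 or without the 3 libraries, and for 0 to 1 with a library left out. The CB-6644 change was called for 3 without the 3 libraries and 0 to 1 with a library left out. Under puromycin it was called for 1 with upper-quartile scaling or all 24 libraries, 3 with no filter or DESeq2, and 4 with only the groups compared. The share of all genes called under each alternative is not given here. These counts show how the calls move with the setting and do not set the golgins against other genes.

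Replicate numbers showed no steady pairing over all group pairs. With the replicate block GOLGA4 enrichment was 6.61 with RPAP3 and 4.28 with RUVBL1 in untreated cells, and no GOLGA4 call changed. The replicate block moved the golgins called to 2 for the RPAP3 puromycin change and to 1 for the CB-6644 change under puromycin. Only 2 libraries per group limit the precision.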
